A study of Mus musculus with 28 samples.

Results

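The mid fistula of a carotid to jugular arteriovenous fistula (AVF) was compared with the contralateral vein, the jugular vein of the other side that carried no fistula, by bulk RNA sequencing in mice. The comparison was chosen by library names and not by any measured value: it holds 12 of the 25 bulk libraries, 5 mid AVFs (9, 12, 13, 14, and 15) and 7 contralateral veins (27, 28, 31, 34, 35, 632, and 633), of 28 samples in the whole series. All mice were C57BL/6, of both sexes by their labels. All had a partial removal of kidney mass before the fistula was made, the mice behind the control veins included. Whether kidney function was the same in both groups is not given. The end of the jugular vein was sewn to the side of the carotid artery, and the mid vessels were taken about 10 days later. The labels give neither the ages of the mice nor the day on which the contralateral veins were taken, and they do not tie a vein to the mouse of any AVF. Each library was made from a piece of ground tissue, so it held every cell type of that piece, including any surrounding tissue that came with it.

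A vein used for dialysis access has to widen and thicken after it is joined to an artery. A resting vein wall holds endothelium that expresses von Willebrand factor and other junction and anchoring proteins, a thin layer of contractile smooth muscle that expresses actin, myosin, and calponin, and an adventitia of quiescent fibroblasts with fat, nerves, and resident macrophages around it. A healing wall is known for myofibroblasts that lay down collagen, fibronectin, and elastic fibers, for lysyl oxidases that crosslink them, for metalloproteinases that cut them, and for monocytes and neutrophils that enter from blood. In bulk tissue, fewer cells of a type and less RNA per cell cannot be told apart, and this holds for every gene below.

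Total counts per library ran from 20254173 to 29913427 in contralateral veins and from 27021483 to 33395623 in mid AVFs. The veins held fewer genes at similar depth. At least 1 count was found for 11958 to 18283 genes in veins and for 25075 to 26168 genes in mid AVFs. Of the 12673 genes tested, 363 to 2848 were at 0 in a vein (2.86% to 22.5%) and 15 to 38 in a mid AVF. Veins 27 and 633 stood nearest to the AVFs, with 363 and 377 tested genes at 0, and the other 5 veins had at least 976. The veins also differed more among themselves, with Spearman correlations across genes of 0.558 to 0.838 over 21 pairs of veins (median 0.678) and 0.950 to 0.972 over 10 pairs of mid AVFs. The 35 pairs of a vein and a mid AVF had 0.553 to 0.843 (median 0.686), about the same as pairs of veins. *Xist* and the Y-linked genes went against the sex label in 8 of the 25 bulk libraries, which included mid AVFs 12 and 14 and none of the veins.

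**Figure D1:**
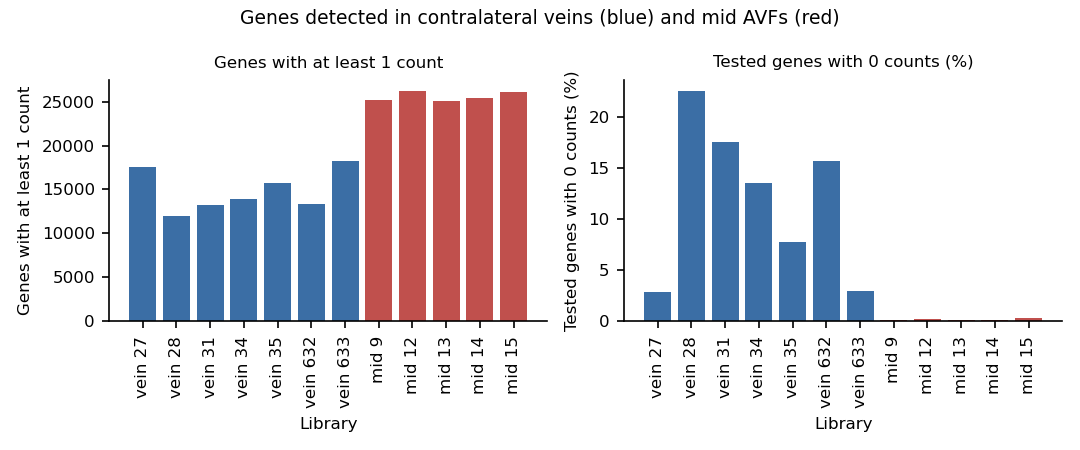
Genes with at least 1 count (left) and the percentage of the 12673 tested genes that had 0 counts (right), in each contralateral vein (blue bars) and each mid AVF (red bars). The mid AVFs lie at 25075 genes or more, above the 18283 of the richest vein, and veins 27 and 633 have the fewest tested genes at 0 of the 7 veins.

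Differentially expressed genes (DEGs) were called in edgeR's quasi-likelihood test where the adjusted *p* was under 0.01 and the gene changed at least 2-fold, a log2 fold change past 1 in either direction. Of 12673 genes, 347 were higher in mid AVFs (2.74%) and 420 were lower (3.31%), 767 in all (6.05%). The median log2 fold change was 5.35 among the higher genes and −1.90 among the lower genes, against −0.10 over all genes tested. All 420 lower genes had counts in every vein. Of the 347 higher genes, 96 had counts in every vein (27.7%), 77 were at 0 in 1 to 3 veins, 152 in 4 to 6 veins, and 22 in all 7 veins. Every mid AVF was above every vein for 342 of the 347 higher genes and below every vein for 321 of the 420 lower genes, beside 7.32% and 4.69% of all genes tested. The selection of the called genes on the same libraries favors such separation.

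The fit set how many genes were called. limma voom with a separate weight for each group, which allows the veins a larger spread, called 5 higher genes (*Cd44*, *Emb*, *Emp1*, *Fn1*, and *Laptm5*) and 101 lower genes, so it called no other rise named below. With veins 27 and 633 as the only controls, edgeR called 686 higher genes (198 of the 347) and 354 lower genes (186 of the 420). Without mid AVFs 12 and 14 it called 180 and 145. Leaving out 1 library in turn gave 262 to 488 higher genes and 270 to 511 lower genes, with the 270 reached without mid AVF 15 and 272 without mid AVF 14. Through all 28 alternative fits, 24 lower genes stayed called, *Mylk*, *Myh11*, *Cnn1*, *Acta2*, *Actg2*, *Vwf*, *Emcn*, *Mmrn2*, *Nr2f2*, *Gsn*, *Inmt*, *Amigo2*, and *Cd209f* among them, and 0 higher genes did. Of 142 called genes named here and refitted, 103 remained called with the 12 libraries of the comparison alone, 83 with veins 27 and 633 as the only controls, 92 without mid AVFs 12 and 14, and 38 in voom. The filter on mean counts was taken over all 25 bulk libraries, and 14 of the 142 genes fell short of it over the 12 libraries and so were tested only because of the other bulk AVFs (*Aldoc*, *Ccl3*, *Ccl17*, *Cd4*, *Egr3*, *Gal*, *Il1a*, *Mag*, *Mmp8*, *Mmp13*, *Ngp*, *Npy*, *Osm*, and *Tgfb1*).

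**Figure D2:**
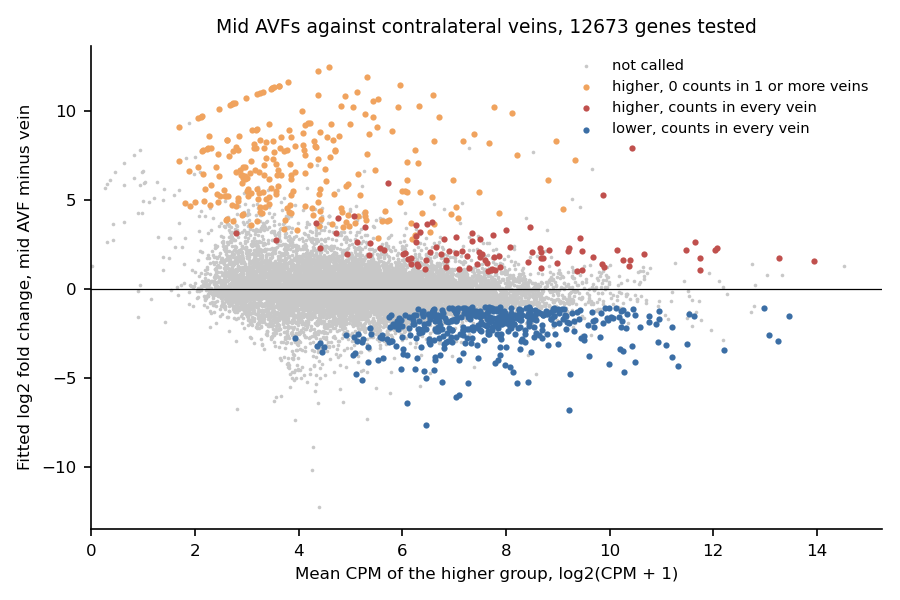
Fitted log2 fold change of mid AVFs over contralateral veins (vertical axis) against the mean level of the group with the higher mean, as log2(CPM + 1) (horizontal axis), for 12673 genes. The 420 lower genes (blue) all had counts in every vein, and of the 347 higher genes 96 (red) had counts in every vein while the others (orange) were at 0 in 1 or more veins.

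Below, expression is in CPM (counts over the scaled library size), and levels are compared only within a gene. A log2 change is the fitted log2 fold change of mid AVFs over veins. Its standard error (SE) is the absolute log2 change over the square root of the test's *F* statistic. The SE thus restates the test and is no separate measure of precision. Veins are given by their lowest, median, and highest value, and mid AVFs are given in the order 9, 12, 13, 14, and 15. Every adjusted *p* is from edgeR's quasi-likelihood test over all 12673 genes. A gene is said to have risen or fallen only where it was called. Within a list, counts at an unadjusted *p* under 0.05 and counts of positive fold changes come without their shares over all genes tested. They are not read as a change of the list.

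Of the lists, the contractile genes of smooth muscle had the most falls. Of 16 contractile genes tested, 11 fell, 0 rose, and 5 were not called, with a median log2 fold change of −2.36. All 11 had every mid AVF below every vein, and 8 were also called by voom. *Mylk*, the kinase that phosphorylates myosin light chain to start contraction, ran from 911 to 1642 CPM in contralateral veins (median 1076) and reached 142, 104, 122, 98.0, and 101 CPM. The highest mid AVF lay far below the lowest vein, and the mid AVFs differed little from each other (log2 change −3.37 ± 0.24 SE, adjusted *p* = 1.88e-09). *Actg2*, an actin of visceral smooth muscle, ran from 823 to 2289 CPM in contralateral veins (median 1044), against 161, 75.3, 86.9, 114, and 114 CPM. No mid AVF came near the veins, and mid AVF 9 was the highest of the 5 (log2 change −3.48 ± 0.34 SE, adjusted *p* = 1.04e-07). *Acta2*, the smooth muscle actin that myofibroblasts also use, ran from 6263 to 14276 CPM in contralateral veins (median 7512). It was at 1801, 1121, 1620.2, 1266, and 1329 CPM in mid AVFs (log2 change −2.60 ± 0.27 SE, adjusted *p* = 2.08e-07). *Tagln*, an actin-binding protein of the same program, had 51.3 to 161 CPM in contralateral veins (median 106) and 11.7, 9.88, 15.7, 10.6, and 7.88 CPM. The groups did not overlap for either gene (log2 change −3.32 ± 0.49 SE, adjusted *p* = 3.36e-05), but other genes cover 67.9% of the exonic bases of *Tagln*, so its low count is uncertain. *Cnn1* and *Myh11*, calponin and the smooth muscle myosin heavy chain, had fitted log2 fold changes of −4.10 and −3.81.

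Several members of the list were not called. *Smtn*, smoothelin of differentiated smooth muscle, had 67.9 to 238 CPM in contralateral veins (median 124) and 82.6 to 110.4 CPM in mid AVFs. The groups overlapped (log2 change −0.64 ± 0.26 SE, adjusted *p* = 0.113). *Des*, desmin, is used by smooth and skeletal muscle alike, and it ran from 137 to 603 CPM in contralateral veins (median 233), against 77.1, 771, 83.2, 229.7, and 207 CPM. Mid AVF 12 was above every vein for *Des*, while mid AVFs 9 and 13 were below every vein (log2 change −0.16 ± 0.71 SE, adjusted *p* = 0.925), and mid AVF 12 was also the library with the most skeletal muscle RNA, given below. Of 9 tested ion channel and calcium pump genes of mural cells, *Kcnab1*, a potassium channel subunit, was the 1 that fell (37.9 to 144 CPM in contralateral veins (median 96.9), 15.2, 14.9, 34.5, 14.1, and 16.3 CPM, log2 change −2.16 ± 0.41 SE, adjusted *p* = 0.000640). Its call was lost in voom, with the 12 libraries alone, with veins 27 and 633 as the only controls, and without mid AVFs 12 and 14. *Abcc9*, the sulfonylurea receptor of the vascular potassium channel, had 98.7 to 413 CPM in contralateral veins (median 215) and 110.5 to 196 CPM, and the groups overlapped (log2 change −0.63 ± 0.35 SE, adjusted *p* = 0.262).

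The CArG box, the 10 base element bound by serum response factor that is known to drive the contractile genes, was looked for in the 250 bases before the RefSeq start of each gene on GRCm38.p6. Its pattern has the same form on both strands, although a single box need not have the same letters on each. An exact box was in 439 of 27025 promoters of this length (1.62%), in 142 of 9815 tested genes (1.45%), and in 8 of 322 lower genes (2.48%). With up to 1 base outside A and T allowed in its core, it was in 9.78%, 9.42%, and 12.7% of them. Of the 12 contractile genes with a promoter in the table, 1 had an exact box (*Myl9*) and 3 had a box with at most 1 departure (*Acta2*, *Myl9*, and *Synm*). Stretches of the *Acta2* promoter (chr19:34255378-34255477, minus strand, 104 to 5 bases before the start) and of the *Myl9* promoter (chr2:156775283-156775394, plus strand, 181 to 70 bases before the start) are shown because these 2 called genes each carry 2 boxes, printed in capitals. The first box of *Myl9* is exact and the other 3 have 1 departure.
Acta2: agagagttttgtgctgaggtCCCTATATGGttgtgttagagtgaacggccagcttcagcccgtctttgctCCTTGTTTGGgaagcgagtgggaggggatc
Myl9: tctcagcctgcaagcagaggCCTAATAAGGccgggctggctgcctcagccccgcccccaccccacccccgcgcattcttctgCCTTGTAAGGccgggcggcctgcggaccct
*Myl9*, a regulatory myosin light chain, was named for this match. It ran from 3335 to 6684 CPM in contralateral veins (median 4714) and was at 512, 365, 537, 429.9, and 386 CPM in mid AVFs, with no overlap of the groups (log2 change −3.41 ± 0.35 SE, adjusted *p* = 2.08e-07). A match is a run of letters and was not tested as a binding site.

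**Figure D3:**
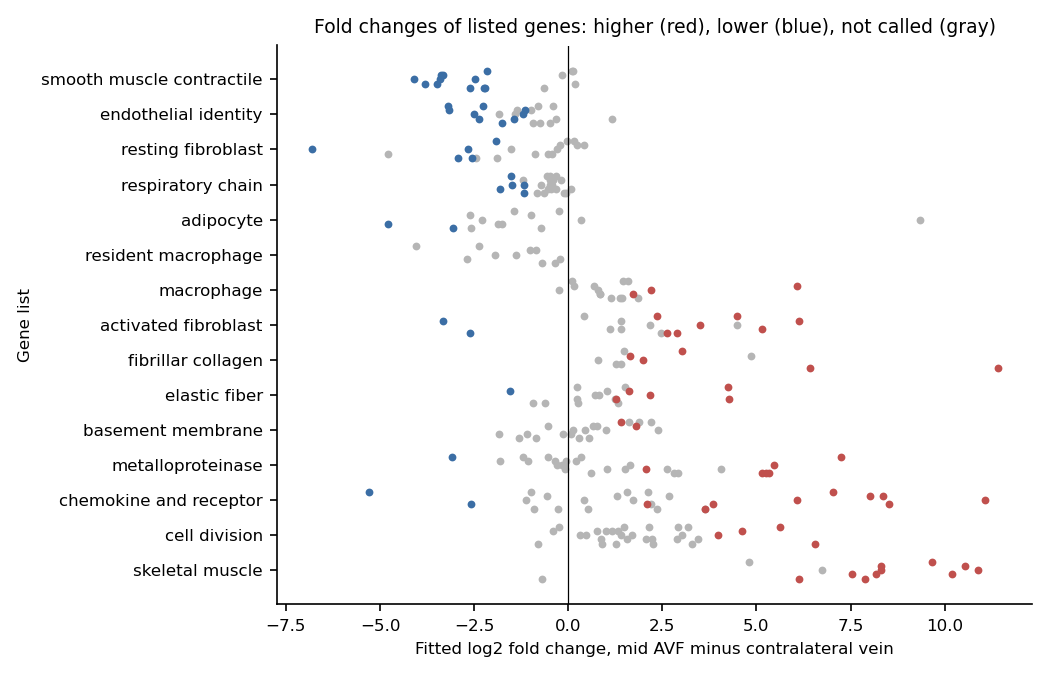
Fitted log2 fold changes of mid AVFs over contralateral veins (horizontal axis) for the tested members of 15 gene lists (rows), 1 point a gene, red where called higher, blue where called lower, and gray where not called. In smooth muscle, 11 of 16 points are blue, in endothelium 9 of 20, and in skeletal muscle 10 of 13 points are red.

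Endothelial identity genes had the next highest number of falls. Of 20 endothelial identity genes tested, 9 fell, 0 rose, and 11 were not called, with a median log2 fold change of −1.29. Voom called 5 of them, and without mid AVFs 12 and 14 edgeR called 6. *Emcn*, endomucin of the venous and capillary surface, ran from 240.4 to 865 CPM in contralateral veins (median 359.7), against 69.0, 41.1, 43.4, 43.5, and 53.2 CPM. The mid AVFs lay within a narrow range below every vein (log2 change −3.16 ± 0.36 SE, adjusted *p* = 9.69e-07). *Mmrn2*, a matrix protein of the endothelial surface, ran from 126 to 365 CPM in contralateral veins (median 161) and was at 44.6, 30.7, 35.8, 38.8, and 44.6 CPM (log2 change −2.37 ± 0.29 SE, adjusted *p* = 3.58e-06). *Ptprb*, a phosphatase that restrains TIE2 and junction signaling, had 242 to 863 CPM in contralateral veins (median 606) and 127, 106, 144, 113, and 109.7 CPM. Neither gene overlapped between groups (log2 change −2.26 ± 0.29 SE, adjusted *p* = 6.33e-06). *Eng*, endoglin, a receptor for the TGF-beta family, had 61.5 to 315 CPM in contralateral veins (median 258) and 102 to 135 CPM in mid AVFs, and it was not called (log2 change −0.80 ± 0.35 SE, adjusted *p* = 0.136). *Tek*, the TIE2 receptor itself, ran from 37.3 to 862 CPM in contralateral veins (median 147), against 74.4 to 119 CPM (log2 change −1.41 ± 0.48 SE, adjusted *p* = 0.0542). For both, the mid AVFs lay inside the range of the veins.

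Of 14 genes of venous and arterial identity, 1 was called. It was *Nr2f2*, the transcription factor that holds venous fate. It ran from 127 to 581 CPM in contralateral veins (median 292), and mid AVFs had 89.4, 64.9, 66.1, 52.1, and 59.4 CPM. The groups did not overlap, although vein 31 came close to mid AVF 9 (log2 change −2.31 ± 0.32 SE, adjusted *p* = 1.48e-05). None of the arterial genes of the list was called, and the median of the 14 genes was 0.40. Of 14 flow-responsive endothelial genes, *Klf2*, a transcription factor that laminar shear induces, was the 1 that fell, from 92.8 to 163 CPM in contralateral veins (median 137) to 44.8, 51.9, 45.5, 35.8, and 24.0 CPM. It did not overlap (log2 change −1.68 ± 0.41 SE, adjusted *p* = 0.00656), but the call was lost without vein 34 or without mid AVF 9, 13, 14, or 15 (adjusted *p* = 0.01003 to 0.0274), and also in voom and with veins 27 and 633 as the only controls. *Vcam1*, an adhesion molecule for leukocytes, was not called, with 58.7 to 369.8 CPM in contralateral veins (median 157) and 204 to 324 CPM (log2 change 0.65 ± 0.31 SE, adjusted *p* = 0.174). Of 7 lymphatic endothelial genes, 0 were called by edgeR and by voom and 1 by DESeq2, with 1 higher and 1 lower at an unadjusted *p* under 0.05. *Lyve1*, a hyaluronan receptor shared with resident macrophages, had 35.4 to 278 CPM in contralateral veins (median 158) and 39.3 to 82.5 CPM (log2 change −1.38 ± 0.46 SE, adjusted *p* = 0.0455).

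Among genes of quiescent adventitial fibroblasts, *Inmt* had the deepest fall, and *Gsn*, *Fmo2*, and *Gdf10* fell less. Of 18 such genes tested, 5 fell, 0 rose, and 13 were not called, with a median log2 fold change of −1.20. *Inmt*, a methyltransferase of small amines, ran from 223 to 897 CPM in contralateral veins (median 659) and was nearly gone in mid AVFs, at 7.70, 2.97, 8.05, 6.45, and 1.23 CPM. Vein 27 was the lowest vein, and it still stood far above every mid AVF (log2 change −6.82 ± 0.69 SE, adjusted *p* = 2.00e-07). *Gsn*, gelsolin, which cuts actin filaments, was 1 of the most abundant genes of the veins, with 5649 to 13231 CPM in contralateral veins (median 9820.0) and 1228, 894, 1826, 1212, and 1259 CPM. No library overlapped (log2 change −2.92 ± 0.29 SE, adjusted *p* = 1.49e-07). *Fmo2*, a flavin monooxygenase, had 463 to 1044 CPM in contralateral veins (median 756) and 98.0, 96.1, 207, 79.0, and 95.8 CPM. Mid AVF 13 was the highest of the 5 and remained below all veins (log2 change −2.66 ± 0.33 SE, adjusted *p* = 2.86e-06). *Gdf10*, a growth factor of the BMP family, fell from 362 to 1010.3 CPM in contralateral veins (median 550.1) to 178, 120.1, 199, 162, and 123 CPM (log2 change −1.93 ± 0.34 SE, adjusted *p* = 0.000295). *Dpt*, dermatopontin, a matrix protein of the same cells, was not called, with 754 to 1764 CPM in contralateral veins (median 929.7) and 625 to 809.8 CPM (log2 change −0.52 ± 0.39 SE, adjusted *p* = 0.438). Voom called 2 of the 5.

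The 10 largest falls among called genes with non-overlapping groups held genes of several kinds. *Amigo2*, an adhesion protein with leucine-rich repeats, ran from 123 to 572 CPM in contralateral veins (median 299.7) and was at 10.0, 8.37, 11.2, 9.86, and 7.10 CPM (log2 change −5.19 ± 0.46 SE, adjusted *p* = 1.57e-08). Its vein values spread several-fold while its mid AVFs did not. The 10 included 3 C-type lectin genes of the *Cd209* family, and *Cd209f* had 104 to 516 CPM in contralateral veins (median 240.1) and 3.38, 7.00, 13.5, 9.21, and 5.77 CPM (log2 change −5.25 ± 0.55 SE, adjusted *p* = 3.25e-07). *Cd209d* and *Cd209g* had log2 fold changes of −6.04 and −5.01. Near-identical copies in this family can share reads, so the split among them is uncertain. *Pappa2*, a protease that releases insulin-like growth factors from their binding proteins, had 45.3 to 415 CPM in contralateral veins (median 65.3) and 2.93, 1.88, 2.16, 1.47, and 2.48 CPM (log2 change −5.95 ± 1.05 SE, adjusted *p* = 0.000310). *Cxcl13*, the chemokine that draws B cells, ran from 32.8 to 349 CPM in contralateral veins (median 133) to 5.61, 4.03, 5.23, 3.54, and 1.34 CPM in mid AVFs (log2 change −5.29 ± 1.10 SE, adjusted *p* = 0.00165). It was not called by voom, nor with veins 27 and 633 alone. *BC051019*, an open reading frame, had 38.1 to 119.9 CPM in veins and 0 to 0.783 CPM in mid AVFs (log2 change −7.63 ± 1.27 SE, adjusted *p* = 0.000164). The calls of *Tmprss5*, a membrane serine protease, and *Pla2g2d*, a secreted phospholipase of immune cells, lay near the threshold in edgeR, while voom called both (adjusted *p* = 5.81e-05 and 0.000655). *Tmprss5* had 17.9 to 375 CPM in contralateral veins (median 61.5) and 1.87 to 3.93 CPM (log2 change −5.22 ± 1.22 SE, adjusted *p* = 0.00481), and it was lost without vein 28 or without any 1 of the mid AVFs (adjusted *p* = 0.0109 to 0.0183). *Pla2g2d* had 18.4 to 202 CPM in contralateral veins (median 33.5) and 0.273 to 1.32 CPM (log2 change −6.43 ± 1.62 SE, adjusted *p* = 0.00859), and it was lost without vein 28, vein 31, or any 1 of the mid AVFs (adjusted *p* = 0.0116 to 0.0290).

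**Figure D4:**
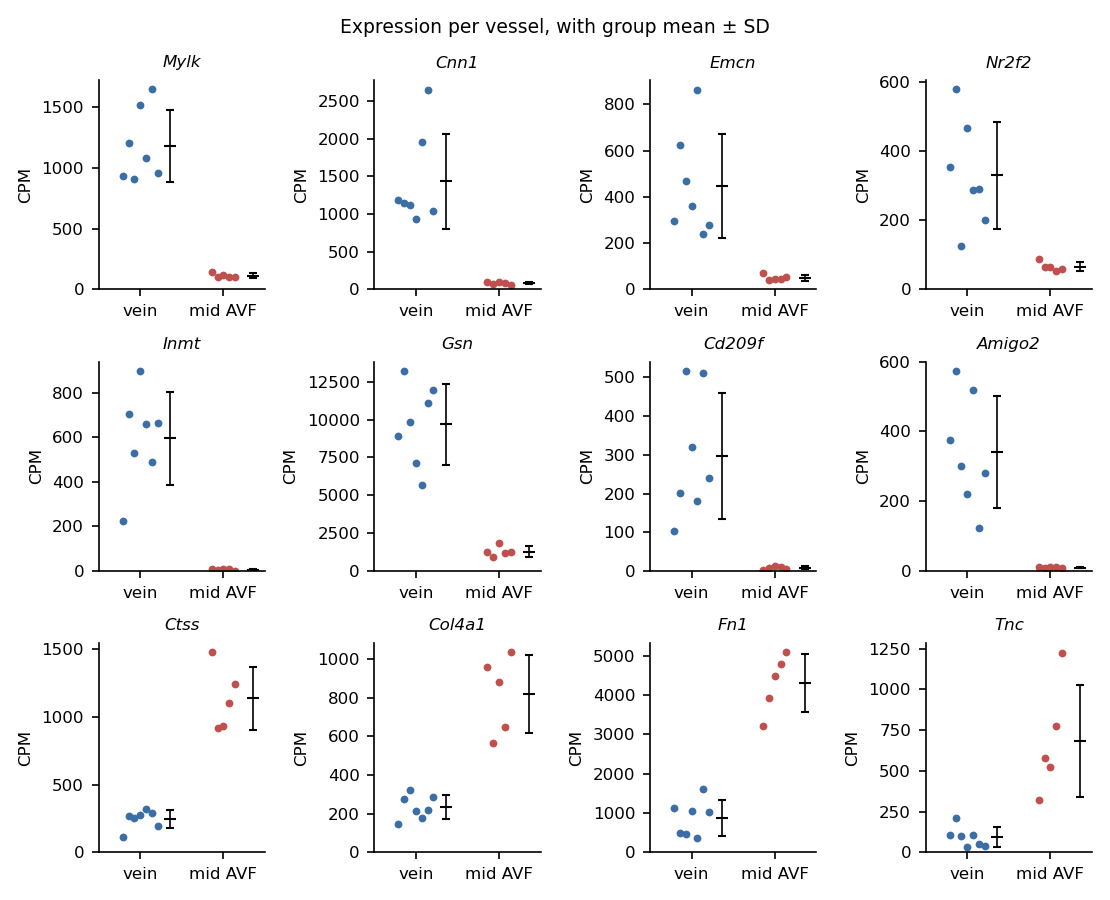
CPM (linear axes from 0) of 12 called genes in each contralateral vein (blue, n = 7) and each mid AVF (red, n = 5), with the group mean ± SD as a bar beside the points. The groups do not overlap in any panel, with the veins higher for *Mylk*, *Cnn1*, *Emcn*, *Nr2f2*, *Inmt*, *Gsn*, *Cd209f*, and *Amigo2* and the mid AVFs higher for *Ctss*, *Col4a1*, *Fn1*, and *Tnc*.

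Among activated fibroblast genes, rises outnumbered falls. Of 16 tested, 7 rose (*Adam12*, *Col12a1*, *Col8a1*, *Cthrc1*, *Postn*, *Timp1*, and *Tnc*), 2 fell (*Acta2* and *Tagln*), and 7 were not called, with a median log2 fold change of 2.42. Voom called none of the 7 rises and both falls. With the 12 libraries of the comparison alone, edgeR called 3 of the rises and both falls. *Tnc*, tenascin C, a glycoprotein of healing matrix, had 34.7 to 214 CPM in contralateral veins (median 99.7) and 319, 581, 525, 779, and 1226 CPM. All 7 veins had counts, every mid AVF was above every vein, and mid AVF 15 was the highest (log2 change 2.89 ± 0.45 SE, adjusted *p* = 7.94e-05). *Col12a1*, a collagen that decorates fibrils, had 0.562 to 110.0 CPM in contralateral veins (median 15.0) and 362, 287, 278, 338, and 489 CPM (log2 change 3.50 ± 0.85 SE, adjusted *p* = 0.00668). That call was lost without vein 35, vein 633, or any 1 of the mid AVFs (adjusted *p* = 0.0102 to 0.0169), and with veins 27 and 633 as the only controls.

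Among the fibrillar collagens 5 of 10 tested genes rose and 0 fell, with a median of 1.81. *Col5a2* and *Col5a1*, chains of the collagen that starts fibrils, were the 2 with counts in every vein. *Col5a2* had 217 to 655 CPM in contralateral veins (median 507) and 1076, 1209, 1388, 1464, and 1626 CPM, with no overlap (log2 change 1.64 ± 0.32 SE, adjusted *p* = 0.000989). *Col5a1* had 93.5 to 804 CPM in contralateral veins (median 398) and 1422, 1359.6, 1579.8, 1977, and 1784 CPM (log2 change 1.98 ± 0.46 SE, adjusted *p* = 0.00452), and its call was lost without mid AVF 12, 13, 14, or 15 (adjusted *p* = 0.0105 to 0.0133). *Col11a1*, a cartilage and fibroblast collagen, was at 0 to 1.59 CPM in veins and 48.6, 17.7, 35.5, 15.2, and 55.3 CPM in mid AVFs (log2 change 6.44 ± 1.20 SE, adjusted *p* = 0.000590). *Col2a1*, the main cartilage collagen, had 0 counts in all 7 veins and 19.2, 5.00, 10.0, 18.4, and 3.65 CPM in mid AVFs. This is at least 87.7-fold higher against a floor of 3 counts per library (adjusted *p* = 0.000715). The floor allows for counting error only. Among tested genes with a mid AVF mean of 10 to 20 CPM, 17.1% of vein values were 0, against 0.105% of mid AVF values. Folds against this floor, here and below, are thus no lower bounds on the change in the tissue. The counting intervals given below pool the counts of a group, so they leave out the spread between vessels and are no bounds either. The most abundant chains were not called. *Col1a2* had 2082 to 8141 CPM in contralateral veins (median 6449) and 10350.1, 7853, 9859.5, 11274, and 11976 CPM (log2 change 0.79 ± 0.42 SE, adjusted *p* = 0.246), and mid AVF 12 lay below veins 27 and 633. With veins 27 and 633 as the only controls, 1 of the 10 was called, while DESeq2 called 6. The summed CPM of the 10 was 5806 to 28175 in veins and 33399 to 53268 in mid AVFs.

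Elastic fiber genes had calls in both directions. Of 17 tested, 5 rose (*Eln*, *Fbln2*, *Fbn1*, *Fbn2*, and *Ltbp2*), 1 fell (*Ltbp4*), and 11 were not called, with a median of 1.02. *Ltbp2*, a fibrillin-binding protein, had 0 to 36.6 CPM in contralateral veins (median 9.41) and 278, 161, 284, 197, and 248 CPM (log2 change 4.27 ± 0.81 SE, adjusted *p* = 0.000642). *Fbn1*, fibrillin of the microfibril, ran from 169.6 to 551 CPM in contralateral veins (median 415), against 939, 1341, 1314, 1364, and 1165 CPM (log2 change 1.60 ± 0.35 SE, adjusted *p* = 0.00288). *Fbln2*, fibulin of basement membranes and elastic fibers, had 221 to 692 CPM in contralateral veins (median 410.3) and 735, 786, 1041, 1196, and 1021 CPM (log2 change 1.26 ± 0.27 SE, adjusted *p* = 0.00224). None of the 3 overlapped between groups. *Fbn1* was lost without mid AVF 12 or 13 (adjusted *p* = 0.0117 to 0.0123), *Fbln2* without mid AVF 14 (adjusted *p* = 0.0103), and *Eln*, with a log2 fold change of 2.18, without mid AVF 13 (adjusted *p* = 0.0119). *Fbn2* was lost without vein 34, 35, or 633 or any 1 of the mid AVFs (adjusted *p* = 0.0101 to 0.0140) and *Ltbp4* without mid AVF 9 or 15 (adjusted *p* = 0.0125 to 0.0142). Without both mid AVFs 12 and 14, 1 of the 5 rises was called and *Ltbp4* was not. *Mfap5*, a microfibril glycoprotein, was not called although every mid AVF was above every vein (454 to 1017 CPM in contralateral veins (median 621), 1387 to 1807 CPM, log2 change 1.25 ± 0.38 SE, adjusted *p* = 0.0314).

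In the basement membrane 2 of 20 tested genes rose, with a median of 0.51. *Col4a1*, the main network collagen, had 145 to 323 CPM in contralateral veins (median 219) and 958, 565, 882, 651, and 1039 CPM (log2 change 1.80 ± 0.24 SE, adjusted *p* = 1.05e-05), 1 of the tighter rises. *Hspg2*, perlecan, had 19.0 to 102 CPM in contralateral veins (median 82.3) and 158 to 183 CPM (log2 change 1.40 ± 0.32 SE, adjusted *p* = 0.00437), and was lost without any 1 of the mid AVFs (adjusted *p* = 0.0101 to 0.0153). Of 14 other nonfibrillar collagens, 3 rose, and 1 was called with the 12 libraries of the comparison alone. *Col6a3*, a chain of the beaded filament collagen, had 188 to 618 CPM in contralateral veins (median 346) and 726 to 1162 CPM in mid AVFs (log2 change 1.41 ± 0.36 SE, adjusted *p* = 0.00983), and 10 of the 12 fits that left out 1 library lost it (adjusted *p* = 0.0127 to 0.0321). Those were the fits without vein 28, 31, 35, 632, or 633 and without any 1 of the mid AVFs. Of 26 genes of collagen folding and crosslinking, 4 rose (*Fkbp10*, *Lox*, *Loxl1*, and *P4ha3*), 2 fell (*Fkbp7* and *Pcolce2*), and 20 were not called. With the 12 libraries of the comparison alone, edgeR called 1 of the rises (*P4ha3*) and both falls. *Fkbp10* was lost without vein 34, vein 35, or any 1 of the mid AVFs (adjusted *p* = 0.0122 to 0.0259) and *Loxl1* without vein 35 or mid AVF 9, 12, 13, or 14 (adjusted *p* = 0.0118 to 0.0243). *P4ha3*, a prolyl hydroxylase subunit, was at 0 to 2.72 CPM in veins and 45.8, 52.6, 83.7, 118, and 38.5 CPM in mid AVFs (log2 change 7.15 ± 1.02 SE, adjusted *p* = 2.59e-05). *Pcolce2*, an enhancer of procollagen cleavage, moved the opposite way, from 119 to 456 CPM in contralateral veins (median 313) to 39.6, 46.4, 68.7, 45.2, and 24.99 CPM (log2 change −2.82 ± 0.37 SE, adjusted *p* = 7.04e-06). *Fkbp7*, a prolyl isomerase of the endoplasmic reticulum, also fell, with 239 to 619.8 CPM in contralateral veins (median 303) and 97.9 to 130.0 CPM (log2 change −1.60 ± 0.29 SE, adjusted *p* = 0.000385). *Serpinh1*, the collagen chaperone, was not called (184 to 828 CPM in contralateral veins (median 284), 778 to 1171 CPM, log2 change 1.33 ± 0.37 SE, adjusted *p* = 0.0157).

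Of 21 matricellular genes, 5 rose (*Fn1*, *Postn*, *Spp1*, *Thbs4*, and *Tnc*) and 0 fell, with a median of 0.81. *Spp1*, osteopontin, a secreted adhesion protein of macrophages and healing tissue, had 0.196 to 81.5 CPM in contralateral veins (median 20.8) and 1075, 630.0, 639.9, 1193, and 1121 CPM. The lowest mid AVF was several times the highest vein (log2 change 5.26 ± 0.87 SE, adjusted *p* = 0.000151). *Sparc*, a collagen-binding protein, was not called, with 1444 to 7541 CPM in contralateral veins (median 5380.1) and 6771 to 9863 CPM (log2 change 0.81 ± 0.37 SE, adjusted *p* = 0.169). Of 10 small leucine-rich proteoglycans, 1 rose, 1 fell, and 8 were not called. Voom, the fit with veins 27 and 633 as the only controls, and the fit without mid AVFs 12 and 14 called 0 of the 10. *Dcn*, decorin, which binds collagen fibrils, was at 7946 to 16139 CPM in contralateral veins (median 11561) and at 4003, 3242, 4116, 3986, and 4328 CPM in mid AVFs (log2 change −1.53 ± 0.36 SE, adjusted *p* = 0.00520). *Bgn*, biglycan, its close relative, had 916 to 2572 CPM in contralateral veins (median 1601) and 3842, 2710.2, 3594, 3579.9, and 3338 CPM (log2 change 1.06 ± 0.27 SE, adjusted *p* = 0.00992). Neither overlapped between groups. *Dcn* was lost without any 1 of the mid AVFs (adjusted *p* = 0.0129 to 0.0170), and *Bgn* without vein 28, 31, 34, 35, or 633 or any 1 of the mid AVFs (adjusted *p* = 0.0123 to 0.0384). Of 9 genes of hyaluronan and its binding proteins, 2 rose. *Cd44*, the hyaluronan receptor, had 0.875 to 174 CPM in contralateral veins (median 97.4) and 389.5, 517, 372, 549, and 448 CPM (log2 change 2.17 ± 0.50 SE, adjusted *p* = 0.00414). Vein 28 was the lowest, at under 1 CPM, and the call was lost without vein 35 or mid AVF 12 or 14 (adjusted *p* = 0.0103 to 0.0128). *Acan*, aggrecan of cartilage, had 0 counts in all veins and 26.2, 4.18, 13.9, 5.79, and 14.5 CPM in mid AVFs, at least 101-fold higher (adjusted *p* = 1.78e-05).

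Among proteases of the metalloproteinase families 6 of 27 tested genes rose (*Adam12*, *Adam8*, *Mmp12*, *Mmp13*, *Mmp14*, and *Mmp8*), 1 fell (*Mmp17*), and 20 were not called, with a median of 0.60. With the 12 libraries of the comparison alone, *Mmp12* was the 1 rise that edgeR called, and voom called 0 rises. *Mmp12*, the elastase of macrophages, was at 0 to 25.3 CPM in contralateral veins (median 0.482) and at 734, 509, 613, 548, and 811 CPM in mid AVFs. Vein 632 held most of the vein counts, and even it was far below every mid AVF (log2 change 7.24 ± 1.07 SE, adjusted *p* = 3.82e-05). *Adam8*, a membrane protease of leukocytes, had 0 to 9.83 CPM in contralateral veins (median 0.317) and 70.5, 66.5, 73.7, 94.7, and 96.2 CPM (log2 change 5.47 ± 0.87 SE, adjusted *p* = 9.79e-05). *Mmp17*, a membrane-anchored protease of smooth muscle, had 13.4 to 206 CPM in contralateral veins (median 65.8) and 7.45, 8.76, 18.3, 12.5, and 6.74 CPM. Mid AVF 13 lay above the lowest vein, vein 35 (log2 change −3.10 ± 0.55 SE, adjusted *p* = 0.000365). *Mmp3*, stromelysin, was not called (483 to 1414 CPM in contralateral veins (median 772), 296 to 491 CPM, log2 change −1.19 ± 0.37 SE, adjusted *p* = 0.0330), nor was *Mmp2*, a gelatinase of fibroblasts (63.0 to 870.2 CPM in contralateral veins (median 326), 470.3 to 814 CPM, log2 change 1.03 ± 0.83 SE, adjusted *p* = 0.477). Of the 5 tissue inhibitors tested, *Timp1* rose (2.36) and *Timp2* fell. *Timp2* had 669 to 2949 CPM in contralateral veins (median 1410.0) and 561, 565, 553, 516, and 459 CPM (log2 change −1.43 ± 0.30 SE, adjusted *p* = 0.00168), with no overlap, and *Timp3*, which binds matrix, had 185 to 689 CPM in contralateral veins (median 374) and 1107, 648, 1249.8, 1064, and 875 CPM without a call (log2 change 1.25 ± 0.44 SE, adjusted *p* = 0.0629). The call of *Timp2* was lost in voom, with the 12 libraries alone, without mid AVFs 12 and 14, and with veins 27 and 633 as the only controls, where its log2 fold change was −0.52, and *Timp1* was lost in voom and with those controls.

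Growth factor lists had calls in both directions. Of 26 genes of TGF-beta and BMP signaling, 2 rose (*Fstl1* and *Tgfb1*), 4 fell (*Bmp4*, *Chrdl1*, *Gdf10*, and *Grem1*), and 20 were not called, with a median of −0.05. Neither rise was called without mid AVFs 12 and 14. The 4 that fell were a BMP ligand, a BMP family ligand, and 2 secreted BMP antagonists. *Grem1*, an antagonist, had 27.7 to 110.4 CPM in contralateral veins (median 48.7) and 4.39, 6.46, 10.7, 10.3, and 4.60 CPM (log2 change −2.91 ± 0.51 SE, adjusted *p* = 0.000287). *Chrdl1*, the other antagonist, had 213 to 1061 CPM in contralateral veins (median 764) and 87.8, 75.8, 138, 149, and 67.5 CPM (log2 change −2.76 ± 0.52 SE, adjusted *p* = 0.000692). *Bmp4*, a ligand, had 11.0 to 166 CPM in contralateral veins (median 125) and 16.2, 10.2, 15.3, 18.4, and 6.71 CPM, and vein 34 lay within the AVF range (log2 change −2.86 ± 0.51 SE, adjusted *p* = 0.000325). In the insulin-like growth factor axis 1 of 11 genes rose and 4 fell (*Igfbp2*, *Igfbp5*, *Igfbp7*, and *Pappa2*), and without mid AVFs 12 and 14 edgeR called none of the 4. *Igfbp5* was also lost without vein 27, 28, 34, or 632 or mid AVF 9, 13, 14, or 15 (adjusted *p* = 0.0102 to 0.0281). *Pappa*, a protease of the binding proteins and a relative of *Pappa2* above, went from at most 0.237 CPM in any vein to 11.5, 17.1, 13.1, 8.71, and 13.6 CPM (log2 change 7.81 ± 0.93 SE, adjusted *p* = 2.02e-06). *Igfbp2* had 101 to 757 CPM in contralateral veins (median 280.5) and 57.4, 18.9, 23.7, 25.4, and 24.1 CPM (log2 change −3.37 ± 0.59 SE, adjusted *p* = 0.000310), and *Igfbp7* had 592 to 2929 CPM in contralateral veins (median 1667) and 456, 376, 355, 288, and 274 CPM (log2 change −2.14 ± 0.41 SE, adjusted *p* = 0.000826). Both are binding proteins, and neither overlapped. *Igf1* itself was not called, although every mid AVF was above every vein (205 to 444 CPM in contralateral veins (median 286), 668 to 898 CPM, log2 change 1.32 ± 0.39 SE, adjusted *p* = 0.0274). Of 14 Wnt modulators, 2 secreted antagonists rose. *Frzb* had 4 counts over all veins and 37.6, 42.7, 66.2, 28.8, and 51.6 CPM in mid AVFs (log2 change 10.67 ± 0.80 SE, adjusted *p* = 2.65e-09), and *Wif1* had 4 counts over all veins and 18.7, 9.91, 20.8, 8.11, and 8.47 CPM (log2 change 8.91 ± 1.05 SE, adjusted *p* = 1.73e-06).

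Macrophage genes had rises and no fall. Of 16 tested, 3 rose, 0 fell, and 13 were not called, with a median of 1.26 and 15 of 16 positive. Voom called 0 of the 16, and edgeR called 2 with the 12 libraries of the comparison alone. With veins 27 and 633 as the only controls, edgeR called 7. The summed CPM of the list was 2312 to 8793 in veins and 12670 to 17587 in mid AVFs. *Ctss*, cathepsin S, a lysosomal protease, had 116 to 322 CPM in contralateral veins (median 268) and 1474, 919, 929, 1104, and 1243 CPM. All veins had counts and the groups stood apart (log2 change 2.21 ± 0.31 SE, adjusted *p* = 2.07e-05). *Lyz2*, lysozyme of myeloid cells, had 1231 to 5379 CPM in contralateral veins (median 3044) and 11814, 8476, 8921, 10659, and 9799 CPM (log2 change 1.73 ± 0.31 SE, adjusted *p* = 0.000324). *Cx3cr1*, the fractalkine receptor of monocytes and macrophages, was at 0 in 4 veins and at most 5.48 CPM in the others, against 102, 48.4, 49.2, 72.7, and 63.8 CPM (log2 change 6.09 ± 1.05 SE, adjusted *p* = 0.000256). DESeq2 did not call it. *C1qb*, a complement subunit made by macrophages, was not called (191 to 954 CPM in contralateral veins (median 534), 832 to 1173 CPM, log2 change 0.79 ± 0.32 SE, adjusted *p* = 0.110). Of 10 markers of resident vascular macrophages tested, 0 had a positive fold change, with a median of −1.20. EdgeR and voom called 0 of them, DESeq2 called 2, and 6 were lower at an unadjusted *p* under 0.05 in edgeR. *F13a1*, a transglutaminase subunit of such cells, had 418 to 901 CPM in contralateral veins (median 508) and 211, 298, 420.0, 345, and 369.7 CPM (log2 change −0.85 ± 0.27 SE, adjusted *p* = 0.0376).

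In a list of lipid-handling and osteopontin macrophages 5 of 18 genes rose (*Ctsd*, *Lgals3*, *Mmp12*, *Spp1*, and *Trem2*) and 2 fell (*Cd36* and *Fabp4*). *Trem2*, a lipid-sensing receptor, had 0 to 6.52 CPM in contralateral veins (median 0.548) and 79.1, 62.8, 41.9, 69.3, and 63.2 CPM (log2 change 5.47 ± 0.85 SE, adjusted *p* = 7.49e-05). *Fabp4* and *Cd36*, a fatty acid binding protein and a fatty acid receptor, are also markers of fat and capillary endothelium. *Fabp4* had 1359 to 4242 CPM in contralateral veins (median 2977) and 400.4, 285, 396, 236, and 396 CPM (log2 change −3.07 ± 0.60 SE, adjusted *p* = 0.000862). *Cd36* had 599 to 1883 CPM in contralateral veins (median 1288) and 349.9, 318, 419, 359, and 466 CPM (log2 change −1.60 ± 0.29 SE, adjusted *p* = 0.000452). Both calls were lost in voom, with veins 27 and 633 as the only controls, and without mid AVFs 12 and 14. Of 13 adipocyte markers tested, 2 fell, 0 rose, and 11 were not called. Their summed CPM ran from 4046 to 21883 in veins and was 2535, 2405, 3726, 1725, and 3021 in mid AVFs. The part of this sum in the falls of *Fabp4* and *Cd36* was not tested. *Retn*, resistin of mouse adipocytes, was the other adipocyte marker that fell (191 to 1255 CPM in contralateral veins (median 446), 21.3, 14.3, 34.6, 11.1, and 27.6 CPM, log2 change −4.78 ± 0.89 SE, adjusted *p* = 0.000575). It was lost with veins 27 and 633 as the only controls and without mid AVFs 12 and 14 as well.

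Other blood cell lists were thinner. Of 9 monocyte genes, 2 rose, and *Ly6c2*, a surface marker of inflammatory monocytes, had 0.386 to 4.56 CPM in contralateral veins (median 0.613) and 25.6, 12.3, 14.7, 15.8, and 28.0 CPM (log2 change 3.68 ± 0.71 SE, adjusted *p* = 0.000813). Of 9 neutrophil genes, 4 rose, with a median of 3.50. *Csf3r*, the receptor for the granulocyte growth factor, had 0.0392 to 2.67 CPM in contralateral veins (median 0.125) and 46.6, 57.6, 38.4, 66.5, and 51.1 CPM (log2 change 5.97 ± 0.74 SE, adjusted *p* = 3.58e-06). *Ngp*, a granule protein, had 2 counts over all veins and 7.49, 2.12, 0.387, 0.564, and 0.668 CPM, a ratio of 174-fold, with a 95% counting interval of 47.9 to 1444 (adjusted *p* = 0.000879). Mid AVF 9 held most of its counts. *S100a8*, the calgranulin of neutrophils, was not called (0.0392 to 52.8 CPM in contralateral veins (median 12.9), 145, 128, 34.9, 127, and 82.1 CPM, log2 change 2.64 ± 0.95 SE, adjusted *p* = 0.0666). Of 8 genes of T and NK cells, *Cd4* was called, with 2 counts over all veins and 11.2, 6.25, 3.62, 8.93, and 10.3 CPM, a ratio of 670.2-fold, with a 95% counting interval of 185 to 5539.8 (adjusted *p* = 6.53e-06). *Cd4* is also read in mouse macrophages and dendritic cells at low levels, and *Trac*, the T cell receptor constant gene, was not called (1.75 to 55.2 CPM in contralateral veins (median 30.3), 7.39 to 18.5 CPM, log2 change −1.19 ± 0.65 SE, adjusted *p* = 0.257). *Rgs1*, a regulator of chemokine receptor signaling in leukocytes, was among the 10 largest rises, with 2 counts over all veins and 69.6, 27.3, 22.5, 30.5, and 21.1 CPM, a ratio of 2781-fold, with a 95% counting interval of 769 to 22968 (adjusted *p* = 3.48e-09). Of 12 genes of dendritic cells and MHC class II, *Ccr7*, the receptor for migration to lymph nodes, was called, with 0 to 0.316 CPM in veins and 11.3, 5.52, 9.21, 15.8, and 10.7 CPM (log2 change 7.70 ± 1.39 SE, adjusted *p* = 0.000390). *Cd74*, the invariant chain, was not called although the groups did not overlap (312 to 1730.3 CPM in contralateral veins (median 805), 3221, 1955, 2352, 2659.8, and 2109.6 CPM, log2 change 1.48 ± 0.46 SE, adjusted *p* = 0.0348). Of 7 B cell and plasma cell genes, 0 were called by edgeR, voom, and DESeq2, with 1 higher and 1 lower at an unadjusted *p* under 0.05. Of 6 mast cell genes, edgeR and voom called 0 and DESeq2 called 3 lower, and 4 were lower at an unadjusted *p* under 0.05 in edgeR.

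Chemokines and their receptors had 9 rises and 2 falls among 26 tested genes, with a median of 2.11. Voom called 0 rises and 1 fall, and edgeR with the 12 libraries of the comparison alone called 4 and 2. With veins 27 and 633 as the only controls, edgeR called 8 and 1. The rises were low in level in every vein. *Ccl3*, a ligand that draws monocytes, had 0 counts in all veins and 14.9, 6.15, 4.93, 9.11, and 9.58 CPM, at least 69.5-fold higher (adjusted *p* = 3.77e-07). *Ccl17* and *Ccl22*, ligands of the receptor CCR4, had 4 and 6 counts over all veins. *Ccl22* was at 12.8, 8.85, 17.6, 16.8, and 11.6 CPM in mid AVFs (log2 change 8.53 ± 1.14 SE, adjusted *p* = 9.31e-06), and *Ccl17* was at 7.98, 7.09, 10.8, 10.2, and 6.74 CPM (log2 change 8.36 ± 1.11 SE, adjusted *p* = 8.35e-06). *Cxcl3*, a neutrophil chemokine, had 0 to 0.395 CPM in veins and 16.6, 14.3, 14.7, 26.1, and 23.1 CPM (log2 change 8.02 ± 1.05 SE, adjusted *p* = 7.04e-06), and its receptor *Cxcr2* had 0 to 1.72 CPM and 15.2, 15.6, 8.44, 15.8, and 12.5 CPM (log2 change 5.27 ± 0.99 SE, adjusted *p* = 0.000642). *Cxcl12*, the most abundant ligand of the list beside *Ccl6*, was not called (284 to 1536 CPM in contralateral veins (median 988), 549 to 717 CPM, log2 change −0.57 ± 0.31 SE, adjusted *p* = 0.249).

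Of 14 genes of the interleukin 1 and interleukin 6 families, 3 rose. *Il1rn*, the natural antagonist of the interleukin 1 receptor, had 0 to 0.946 CPM in contralateral veins (median 0.227) and 101, 86.8, 60.3, 118, and 117 CPM, with the groups far apart (log2 change 8.33 ± 0.68 SE, adjusted *p* = 7.89e-09). *Il1a*, an agonist of the same receptor, had 0 counts in all veins and 7.11, 4.03, 2.71, 5.51, and 9.00 CPM, at least 44.1-fold higher (adjusted *p* = 6.61e-07). *Osm*, oncostatin M, had 0 to 1.51 CPM in veins and 5.82, 3.70, 3.35, 10.5, and 6.38 CPM (log2 change 4.67 ± 1.15 SE, adjusted *p* = 0.00707), and was lost without vein 633 or any 1 of the mid AVFs (adjusted *p* = 0.0104 to 0.0202). Of 18 complement genes, 1 rose and 2 fell. *C3ar1*, the receptor for a cleaved fragment of C3, had 0.187 to 56.4 CPM in contralateral veins (median 32.2) and 324, 214, 237, 257, and 246 CPM (log2 change 3.29 ± 0.62 SE, adjusted *p* = 0.000640). *C2*, a component of the classical pathway, fell from 66.1 to 191 CPM in contralateral veins (median 116) to 22.2, 16.2, 16.9, 15.6, and 21.8 CPM (log2 change −2.71 ± 0.58 SE, adjusted *p* = 0.00196). *Serping1*, the inhibitor of the classical proteases, was below every vein in every mid AVF without passing the test (1623 to 4254 CPM in contralateral veins (median 3175), 863 to 1466 CPM, log2 change −1.28 ± 0.42 SE, adjusted *p* = 0.0464). Of 15 interferon-stimulated genes, 14 had positive fold changes, with a median of 0.79. EdgeR and voom called 0 of them and DESeq2 called 1, and 3 were higher at an unadjusted *p* under 0.05 in edgeR.

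Few cell division genes were called. Of 30 tested, 4 rose, 0 fell, and 26 were not called, while 27 of 30 were positive with a median of 1.62. With the 12 libraries of the comparison alone 0 of the 30 were called, and DESeq2 called 9. *Kif11*, the spindle motor, had 0 to 2.28 CPM in contralateral veins (median 0.0907) and 25.4, 17.1, 14.2, 21.4, and 23.5 CPM (log2 change 5.64 ± 1.00 SE, adjusted *p* = 0.000340). *Birc5*, survivin, had counts in every vein, with 0.0392 to 8.11 CPM in contralateral veins (median 0.725) and 31.9, 25.4, 18.1, 27.8, and 27.9 CPM (log2 change 3.99 ± 0.78 SE, adjusted *p* = 0.000920). *Kif20a*, a motor of cytokinesis, had 0 to 0.949 CPM in veins and 19.4, 8.91, 9.60, 15.0, and 18.7 CPM (log2 change 6.56 ± 1.16 SE, adjusted *p* = 0.000333). *Foxm1*, a transcription factor of the division program, had 0 to 1.68 CPM and 8.36, 9.85, 6.64, 13.5, and 7.80 CPM (log2 change 4.62 ± 1.05 SE, adjusted *p* = 0.00372), and was lost without mid AVF 14 (adjusted *p* = 0.0103). *Pcna*, the clamp of DNA replication, was not called, at 21.4 to 90.0 CPM in contralateral veins (median 51.2) and 42.5, 38.1, 35.7, 41.3, and 42.0 CPM (log2 change −0.41 ± 0.31 SE, adjusted *p* = 0.439). Of 14 immediate early genes, *Egr3* was called (0 to 0.940 CPM in veins, 4.70, 7.34, 6.45, 7.48, and 4.79 CPM, log2 change 4.94 ± 1.04 SE, adjusted *p* = 0.00194), but not with the 12 libraries alone or without mid AVFs 12 and 14.

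Energy genes had calls in both directions. Of 23 respiratory chain genes, 5 fell, 0 rose, and 1 was positive, with a median of −0.49. *Cox6c*, a subunit of cytochrome c oxidase, had 521 to 1426 CPM in contralateral veins (median 750.0) and 275, 279, 164, 228, and 222 CPM, with no overlap (log2 change −1.81 ± 0.37 SE, adjusted *p* = 0.00143). *Cox7b*, another subunit, had 181 to 605 CPM in contralateral veins (median 319.6) and 96.2 to 145 CPM (log2 change −1.49 ± 0.36 SE, adjusted *p* = 0.00593), and was lost without vein 34 or mid AVF 9, 13, 14, or 15 (adjusted *p* = 0.0127 to 0.0212). *Ndufv2*, of complex I, had 220.3 to 663 CPM in contralateral veins (median 422) and 146 to 186 CPM (log2 change −1.17 ± 0.27 SE, adjusted *p* = 0.00457), and was lost without mid AVF 9, 14, or 15 (adjusted *p* = 0.0127 to 0.0149). Voom called none of the 5, and without mid AVFs 12 and 14 edgeR called 0. Of 18 glycolysis genes, 2 rose and 1 fell. *Slc16a3*, the lactate exporter, had 0 to 6.00 CPM in contralateral veins (median 2.87) and 26.1, 24.0, 27.7, 40.4, and 34.1 CPM (log2 change 3.54 ± 0.80 SE, adjusted *p* = 0.00334). *Aldoc*, an aldolase also used by nerve, had 0 counts in all veins and 7.45, 4.24, 5.37, 4.07, and 1.39 CPM, at least 35.1-fold higher (adjusted *p* = 0.000309). *Pfkp*, a phosphofructokinase, fell from 234 to 593 CPM in contralateral veins (median 484) to 138, 115, 141, 158, and 156 CPM (log2 change −1.71 ± 0.23 SE, adjusted *p* = 1.40e-05). Of 18 circadian clock genes, *Per3* fell (68.9 to 300.3 CPM in contralateral veins (median 108), 27.7, 49.8, 30.4, 22.9, and 35.4 CPM, log2 change −2.12 ± 0.37 SE, adjusted *p* = 0.000269), and was lost in voom and with veins 27 and 633 as the only controls. The hour at which the vessels were taken was not given.

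The largest rises of all were those of skeletal muscle genes. Of 13 skeletal muscle genes tested, 10 rose, with a median log2 fold change of 8.17, and 8 of the 10 largest rises among genes with counts in both groups were skeletal muscle genes (*Xirp2*, *Myoz1*, *Ckm*, *Cavin4*, *Klhl41*, *Mb*, *Mybpc1*, and *Myog*). The summed CPM of the list was 13.0 to 118 in veins and 1249, 12092, 929, 3817, and 2334 in mid AVFs. Mid AVF 12 was the highest and mid AVF 14 came next, and both are the libraries whose sex genes go against the label. *Ckm*, muscle creatine kinase, had 0 to 0.105 CPM in veins and 51.8, 233, 32.6, 116, and 47.3 CPM (log2 change 10.89 ± 2.06 SE, adjusted *p* = 0.000677). *Myog*, a transcription factor of differentiating muscle, had 3 counts over all veins and 2.47, 65.5, 6.25, 30.3, and 32.2 CPM, a ratio of 1561-fold, with a 95% counting interval of 534 to 7571 (adjusted *p* = 0.000381). *Myh4* and *Myh1*, fast myosin heavy chains with near-identical sequences that can share reads, had 136, 603, 92.4, 207, and 53.7 CPM and 18.2, 353, 35.1, 129, and 168 CPM. The first was called (log2 change 10.21 ± 2.07 SE, adjusted *p* = 0.00129) and the second was not (log2 change 4.81 ± 1.75 SE, adjusted *p* = 0.0706), and vein 27 held most of the vein counts of *Myh1*. *Igfn1*, a protein of the sarcomere, had 0 counts in all veins and 0.279, 84.9, 1.60, 18.9, and 8.83 CPM, at least 178-fold higher (adjusted *p* = 0.00490). *Trim63*, the muscle ubiquitin ligase, had 0 counts in all veins as well and 1.18, 34.1, 2.30, 9.99, and 9.05 CPM, at least 88.1-fold higher (adjusted *p* = 0.00488). Both calls were lost without mid AVF 12 (adjusted *p* = 0.0135 and 0.0118). With veins 27 and 633 as the only controls 0 of the 10 skeletal muscle genes were called by edgeR, and without mid AVFs 12 and 14 the number was 2.

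Genes of other tissue of the neck were read in uneven amounts. *Pth*, parathyroid hormone, had 1.90, 10.8, 0, 0.136, 0, 0, and 0 CPM in veins 27, 28, 31, 34, 35, 632, and 633 and 218, 1610.3, 7.75, 0.470, and 0 CPM in mid AVFs. Mid AVFs 12 and 9 carried it, mid AVF 15 had none, and the gene was not called (log2 change 7.69 ± 2.92 SE, adjusted *p* = 0.0851). *Chga*, a granule protein of endocrine cells, followed the same libraries, with 84.8, 667, 8.66, 6.73, and 6.68 CPM (log2 change 7.91 ± 2.39 SE, adjusted *p* = 0.0287). The 6 tested genes of cartilage and bone summed to 6.62 to 99.7 CPM in veins and 147, 54.4, 102, 84.0, and 62.3 CPM in mid AVFs, so vein 632 was within the AVF range. Of 16 genes of Schwann cells and nerve, 3 rose. *Gal*, galanin, a neuropeptide of injured nerve, had 2 counts over all veins and 3.03, 2.73, 0.498, 11.4, and 2.23 CPM, a ratio of 326-fold, with a 95% counting interval of 89.8 to 2697 (adjusted *p* = 0.000877). *Npy*, of sympathetic nerve, had 0 counts in all veins and 1.39, 0.910, 0.858, 7.17, and 0.863 CPM, at least 17.4-fold higher (adjusted *p* = 0.00501), and *Mag*, of myelin, had 0 to 0.931 CPM in veins and 5.99, 5.73, 9.13, 3.16, and 3.68 CPM (log2 change 4.73 ± 1.07 SE, adjusted *p* = 0.00357). Mid AVF 14 was the highest for *Gal* and *Npy*. *Npy* was lost without vein 28 or mid AVF 14 (adjusted *p* = 0.0101 to 0.0167) and *Mag* without mid AVF 13 (adjusted *p* = 0.0104). Of 11 globin and platelet genes, signs of blood in the vessel, edgeR and voom called 0 and DESeq2 called 1, and 4 were lower at an unadjusted *p* under 0.05 in edgeR. *Hba-a1*, which shares reads with its twin copy, had 1079 to 5695 CPM in contralateral veins (median 2014) and 1745, 906, 725, 910.2, and 346 CPM (log2 change −1.64 ± 0.65 SE, adjusted *p* = 0.0995). The part of any of these tissues in the wall gene results was not tested.

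**Figure D5:**
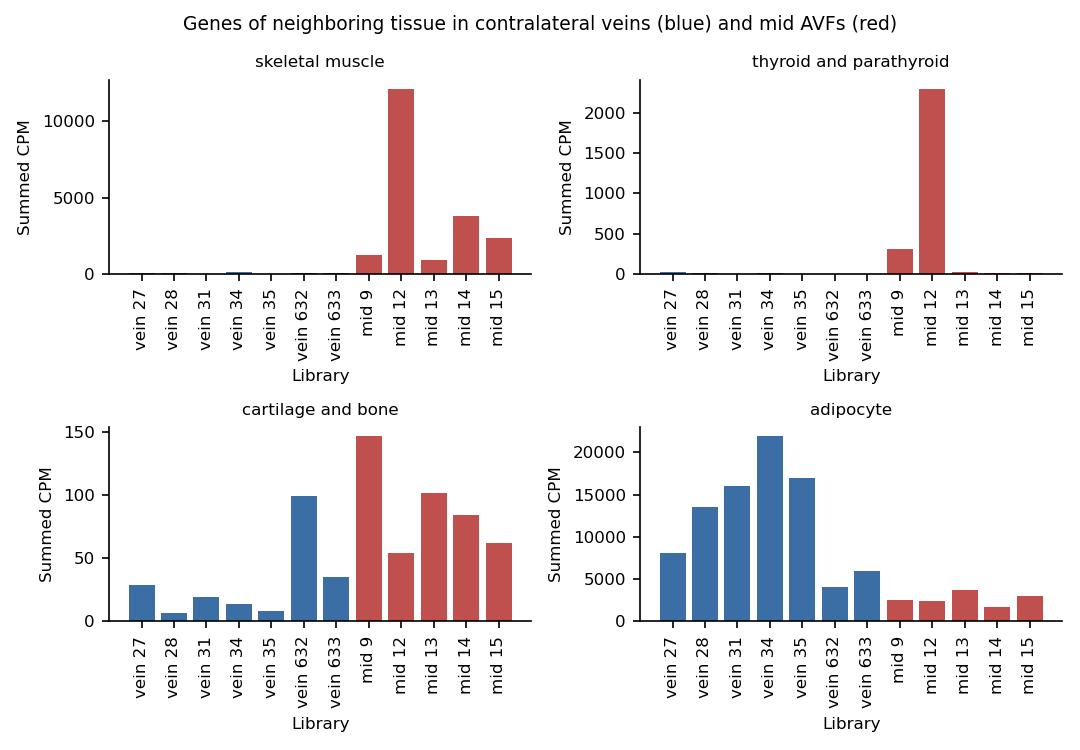
Summed CPM (linear axes from 0, 1 bar a library) of the tested genes of skeletal muscle, thyroid and parathyroid, cartilage and bone, and adipocytes in 7 contralateral veins (blue) and 5 mid AVFs (red). Mid AVF 12 is the highest for skeletal muscle and for thyroid and parathyroid, and the adipocyte sum of each vein is above that of every mid AVF.

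The groups held 5 female and 2 male veins and 3 female and 2 male mid AVFs by their labels. The change differed between labelled sexes for 3 genes at an adjusted *p* under 0.05 in edgeR's interaction test (0.0237% of 12673), and 770 genes had an unadjusted *p* under 0.05. The fold change of each labelled sex was taken from a joint fit of both. It was positive in both for 347 of the 347 higher genes and negative in both for 417 of the 420 lower genes. The selection of those genes on the same libraries favors this. *Dll4*, a Notch ligand of arterial and sprouting endothelium, was among the 3, with *Fbxo10* and *Farp2*. *Dll4* was at 0 in all 5 female veins, at 42.7 and 4.73 CPM in male veins 632 and 633, and at 11.9, 7.43, 8.16, 9.05, and 9.97 CPM in mid AVFs. The same 5 veins were at 0 for *Fbxo10* and *Farp2*, so the interaction rested on veins without a count. Since mid AVF 12 was labelled male with *Xist* at 440 CPM and mid AVF 14 was labelled female with *Xist* at 0.188 CPM, the labelled sexes are not the sexes that the genes show for these libraries, and edgeR called 0 genes for the interaction once the 8 libraries against their label were left out, with 160 at an unadjusted *p* under 0.05.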

How the data were processed

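Tissue was ground, RNA was extracted and treated with DNase, and poly(A) libraries were sequenced as paired reads. The deposited table holds raw counts of reads per Ensembl gene for 25 bulk libraries, which the authors normalized with DESeq2 for their own tests. The submitters' processing notes list STAR, Cell Ranger, GRCm38, and mm10, but which of them made the bulk counts, and with which annotation and strand setting, is not given in any source used here. The gene lists and named genes were chosen with earlier results of these data known.

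Groups came from library titles. Tests ran on the 12673 of 56980 genes whose mean size-factor-normalized count over the bulk libraries reached 100. Counts were scaled by TMM and fitted with edgeR 4.0.16 in R 4.3.3 (glmQLFit and glmQLFTest, 1 mean for each of 4 groups, all 25 libraries for a common spread, Benjamini-Hochberg adjustment). The biological coefficient of variation was 0.843. Nothing states that libraries of a group came from separate cages or extraction days, so *p* values measure the spread between these libraries, and intervals and floors cover counting error only. Symbols came from the series' single-cell gene list for 32210 genes and from the reference annotation for 19962. Counts were simulated for the 12673 genes with known changes in this comparison and with the same spread for veins and AVFs. On them the fit called 22 of 100 genes changed 4-fold and 57 of 100 changed 16-fold, with 0 calls among unchanged genes. The real veins differ more among themselves and hold more zeros than the mid AVFs. The simulation therefore does not give the rate of false calls in the real comparison. Named genes were the 10 largest rises and falls among called genes with counts in both groups and no overlap, up to 5 called genes at 0 in a group, and in each of 47 lists up to 4 called members by *p* and up to 2 others by level, predicted genes aside. From these, those described were taken after their values were seen. Members given only by name in a list's count were all its called members. A called complement gene is not reported here.

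Alternatives used DESeq2 1.42.0, its size factors, limma 3.58.1 (voom), a test against a 1.5-fold change, other filters, sets of libraries, and a sex term. Of 175 genes named and tested, 7 share at least 20% of their exonic bases with another gene in GENCODE's mouse annotation (*C2*, *Ctsd*, *Fbn1*, *Kif20a*, *Mb*, *Tagln*, and *Timp3*), so their counts are uncertain. The single-cell matrices of the series were not used here.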

Additional observations from a re-analysis of the deposited data

Results flagged for a closer look

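Libraries far from the rest of their group were looked for in the CPM of the named genes and the summed CPM of the lists, wherever the highest library of a group reached 1 CPM. The gap of the end library to its neighbor was set against the group's whole range at Dixon's 95% limit. For normally distributed values, chance passes this limit in about 1 of 20 groups. That rate was not checked for CPM, and many genes had veins without a count. The number of groups that passed is therefore not compared with chance. Of 408 groups, 50 passed, 28 among contralateral veins and 22 among mid AVFs, and all but 1 were a high library.

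Contralateral vein 27 stood high for *Birc5* (8.11 CPM), *Myh1* (31.4 CPM), and *Thbs4* (14.6 CPM). Contralateral vein 28 stood high for *Mmp2* (870.2 CPM), *Pth* (10.8 CPM), *Tek* (862 CPM), *Timp2* (2949 CPM), *Tmprss5* (375 CPM), *Tnc* (214 CPM), the summed CPM of the flow-responsive endothelial list (2621 CPM), the summed CPM of the metalloproteinase inhibitor list (3454 CPM), and the summed CPM of the B cell and plasma cell list (6878 CPM). Contralateral vein 35 stood high for *Abcg2* (554 CPM), *Adam12* (13.8 CPM), *Osm* (1.51 CPM), and *Trem2* (6.52 CPM). Contralateral vein 632 stood high for *Actg2* (2289 CPM), *Dll4* (42.7 CPM), *Farp2* (54.2 CPM), *Foxm1* (1.68 CPM), *Mmp12* (25.3 CPM), and the summed CPM of the cartilage and bone list (99.7 CPM). Contralateral vein 633 stood high for *Adam8* (9.83 CPM), *Col11a1* (1.59 CPM), *Cx3cr1* (5.48 CPM), *Cxcr2* (1.72 CPM), *Kif11* (2.28 CPM), and *P4ha3* (2.72 CPM). Mid AVF 9 stood high for *Cxcl12* (717 CPM), *Igfbp2* (57.4 CPM), *Ngp* (7.49 CPM), *Rgs1* (69.6 CPM), and the summed CPM of the B cell and plasma cell list (1333 CPM). Mid AVF 12 stood high for *Chga* (667 CPM), *Des* (771 CPM), *Igfn1* (84.9 CPM), *Mb* (145 CPM), *Myh4* (603 CPM), *Pth* (1610.3 CPM), *Trim63* (34.1 CPM), *Xirp2* (132 CPM), the summed CPM of the skeletal muscle list (12092 CPM), and the summed CPM of the thyroid and parathyroid list (2294 CPM). It stood low for the summed CPM of the small leucine-rich proteoglycan list (9478 CPM), against 11975 CPM in the next library. Mid AVF 13 stood high for *Eln* (5097 CPM), *Fmo2* (207 CPM), *Kcnab1* (34.5 CPM), and the summed CPM of the mast cell list (125 CPM). Mid AVF 14 stood high for *Gal* (11.4 CPM) and *Npy* (7.17 CPM).

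The change differed between the labelled sexes for 3 genes in edgeR's interaction test. The male minus female difference of the log2 fold change was −13.25 for *Fbxo10* (adjusted *p* = 0.000720), −12.39 for *Dll4* (adjusted *p* = 0.0101), and −12.78 for *Farp2* (adjusted *p* = 0.0418). All 3 were at 0 in the 5 female veins, so the sizes depend on the prior count of the fit and are no bounds. The male veins are also the 2 with numbers of 632 and 633, so sex and number series cannot be told apart among the veins.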

How the results depend on the processing

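The 347 higher and 420 lower genes changed in number with the tool and the libraries. DESeq2 called 624 and 794, voom with group weights 5 and 101, and an adjusted *p* under 0.05 gave 618 and 803. A test against a 1.5-fold change left 221 lower genes. With the 12 libraries of the comparison alone the counts were 149 and 254, with labelled females 137 and 88, and with labelled males 198 and 74. EdgeR's own filter raised the higher genes to 2272 and no filter to 2293. Among alternatives added after the data were seen, veins 27 and 633 as the only controls gave 686 higher genes, and leaving out mid AVFs 12 and 14 gave 180 and 145. Leaving out 1 library in turn gave 262 to 488 higher and 270 to 511 lower genes, with the lowest lower counts, 270 and 272, without mid AVF 15 and without mid AVF 14. The cause of these differences was not tested. The counts stayed within 1.5 times of the reported ones under DESeq2 size factors, robust dispersion, a sex term, the mean count filter over 12 libraries, and TMM on all genes. The sex interaction was called for 245 genes by DESeq2, for 0 with the 12 libraries alone (322 at an unadjusted *p* under 0.05), and for 0 without the 8 libraries against their label. No called gene named here changed sign under any alternative. *Des*, which was not called, had a log2 fold change of −0.16 that ran from −1.10 (without mid AVF 12) to 0.0911 with 1 library left out, turning positive without vein 632 (0.0911), mid AVF 13 (0.0018), or mid AVF 9 (0.0748) and with veins 27 and 633 as the only controls (0.39). Most rises are set against veins at 0, since 96 of the 347 higher genes had counts in every vein. No paired analysis was possible because the labels give veins and mid AVFs no shared library number.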

Other observations

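Further called genes that belong to none of the lists were picked after their values were seen, so they are given as values and no test of a group was made. Several fell in mid AVFs. *Fasn*, the fatty acid synthase, had 176 to 1203 CPM in contralateral veins (median 750.0) and 85.0, 70.2, 146, 89.0, and 103 CPM (log2 change −2.87 ± 0.47 SE, adjusted *p* = 0.000129), *Elovl6*, which lengthens its product, had 22.1 to 301 CPM in contralateral veins (median 210.2) and 8.10 to 13.8 CPM (log2 change −3.88 ± 0.56 SE, adjusted *p* = 2.77e-05), and *Me1*, which supplies its reducing power, had 69.2 to 641 CPM in contralateral veins (median 425) and 27.7 to 35.9 CPM (log2 change −3.54 ± 0.47 SE, adjusted *p* = 7.69e-06). *Scd1*, the desaturase of the same pathway, was not called (1205 to 8100.2 CPM in contralateral veins (median 4716), 224 to 1343 CPM, log2 change −2.87 ± 0.87 SE, adjusted *p* = 0.0285). Of 13 adipocyte markers tested, 2 fell, 0 rose, and 11 were not called, with 2 of the 13 positive. The part of fat in the falls of these lipid genes was not tested. The endothelium, smooth muscle, and fat all have caveolae. *Cav1*, the coat protein, had 1204 to 2545 CPM in contralateral veins (median 1662) and 617, 514, 662, 643, and 573 CPM (log2 change −1.53 ± 0.22 SE, adjusted *p* = 2.66e-05), and *Cavin1*, its scaffold, had 863 to 1855 CPM in contralateral veins (median 1231) and 384 to 617 CPM (log2 change −1.40 ± 0.22 SE, adjusted *p* = 7.13e-05). Among glutathione transferases, *Gstm1* was at 945 to 3139 CPM in contralateral veins (median 1891) and 241, 262, 283, 233, and 219 CPM (log2 change −2.99 ± 0.26 SE, adjusted *p* = 1.57e-08) and *Gstt1* was at 134 to 478 CPM in contralateral veins (median 258) and 40.0 to 58.1 CPM (log2 change −2.52 ± 0.41 SE, adjusted *p* = 0.000147). *Gstm1* has close copies that can share its reads.

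Among the 24 lower genes called in all 28 alternatives were also *Plcb4*, a phospholipase of receptor signaling (211 to 417 CPM in contralateral veins (median 291), 66.6, 56.5, 70.8, 66.5, and 68.5 CPM, log2 change −2.19 ± 0.23 SE, adjusted *p* = 2.16e-07), *Id4*, an inhibitor of helix-loop-helix factors (128 to 479 CPM in contralateral veins (median 220.4), 12.4, 17.0, 12.3, 12.7, and 9.53 CPM, log2 change −4.39 ± 0.47 SE, adjusted *p* = 4.27e-07), and *Abcg2*, an efflux pump of capillary endothelium (189 to 554 CPM in contralateral veins (median 225), 46.5, 46.8, 54.7, 42.8, and 59.9 CPM, log2 change −2.38 ± 0.26 SE, adjusted *p* = 6.38e-07). Among the 5 higher genes that voom called, *Emp1*, a membrane protein of growing epithelium and fibroblasts, had 59.7 to 187 CPM in contralateral veins (median 128) and 602, 549, 559, 675, and 547 CPM (log2 change 2.15 ± 0.22 SE, adjusted *p* = 2.08e-07), *Emb*, a partner of lactate transporters, had 0.482 to 56.8 CPM in contralateral veins (median 34.7) and 139, 149.7, 171, 164, and 181 CPM (log2 change 2.71 ± 0.63 SE, adjusted *p* = 0.00480), and *Laptm5*, a lysosomal protein of leukocytes, had 8.25 to 181 CPM in contralateral veins (median 68.3) and 459.9, 339.7, 414, 442, and 372 CPM (log2 change 2.32 ± 0.45 SE, adjusted *p* = 0.000828). Every mid AVF was above every vein for all 3. EdgeR's call of *Emb* was lost without mid AVF 12, 13, 14, or 15 (adjusted *p* = 0.01003 to 0.0115).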
